A study of Mus musculus with 6 samples.

Results

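The histone genes were selected by name from the deposited expression table: 79 of its 23284 rows carry a symbol beginning with Hist1h to Hist4h or with H2af, or are H3f3a, H3f3b, H1f0 or H1fx. Of these, 67 belong to the replication-dependent gene clusters and 12 are replacement variants. The table compares heart ventricles at E9.5 from 3 wild-type (WT) and 3 Tbx5ua -/- (KD) chimeric embryos of the C57BL/6 strain. Tbx5ua is a long non-coding RNA transcribed divergently from the Tbx5 promoter, and in KD ES cells 3 polyadenylation signals placed in its second exon on both alleles stop its transcription early. All embryos, WT and KD, were made by tetraploid complementation from C57BL/6J ES cells, so that the embryo proper derives from the ES cells. The KD lines had been cloned, and their selection cassettes were removed with cell-permeable Cre. How many lines gave the 3 KD embryos is not stated in the sources used here.

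Cuffdiff gave 1 FPKM value (reads of a gene divided by transcript length and library size) for each gene in each group, so every value below is the authors' pooled group value, with no value for a single embryo, no SD and no test. The depth of the libraries is unknown. The FPKM values sum to 859452 in WT and 877889 in KD. The median log2 ratio of KD over WT over the 11548 genes that reached 1 FPKM in either group and were above 0 in both was 0.00. All 10 ventricular cardiomyocyte markers were within 0.25 of equality on the log2 scale, beside 69.0% of all genes. Among genes with a mean of at least 10 FPKM, where all of these markers but Ttn lie, the share was 83.9%. The summed level of the cardiomyocyte markers was 36671 FPKM in WT against 38433 FPKM in KD. Erythroid markers summed to 11449 and 11526 FPKM (7 of 8 listed), endocardial markers to 133 and 146 FPKM, and epicardial markers to 47.1 and 96.0 FPKM, with 5 of the 6 epicardial markers that reached 1 FPKM at least 1.5-fold higher in KD, beside 4.62% of all genes.

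Histones package DNA into nucleosomes, each built on a core of H2A, H2B, H3 and H4 and closed by a linker histone, H1. The replication-dependent genes lie in clusters, have no introns in their usual form and are transcribed in S phase, when new chromatin is needed. Their mRNAs normally end in a conserved stem-loop, bound by the protein Slbp, in place of a poly(A) tail. The replacement variants are made outside S phase as well, from single, mostly spliced genes with polyadenylated mRNAs. Smart-Seq2, which made these libraries, primes cDNA synthesis at poly(A) tails. What share of each replication-dependent mRNA entered the libraries was not tested, and levels between the 2 kinds of gene are set side by side below on that condition.

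The stem-loop is shown first because it is the 3′ end known for replication-dependent histone mRNAs. In GENCODE transcripts (release M21, GRCm38) it was searched as GGNNNN, a 4-base loop beginning with T, and the reverse complement of the first 6 bases. It was found in the transcript models of 46 of the 67 replication-dependent rows and of 1 of the 12 replacement rows, H2afx. The 16-base forms found, 9 in all, occurred in 2 of 58701 coding transcripts of other genes. Those transcripts were searched only for the 9 forms and not for the looser pattern, so the counts are not on the same measure. Where a histone gene had several coding transcripts, one with a match was taken first. Each sequence below is written as RNA sense in DNA letters with up to 5 bases on each side, and the capitals mark the stem-loop. Coordinates are those of the 16 bases in capitals.
Hist1h1c (chr13:23739512-23739527, + strand): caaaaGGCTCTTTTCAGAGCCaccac
Hist1h2ab (chr13:23751572-23751587, + strand): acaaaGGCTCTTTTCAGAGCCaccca
Hist1h2bb (chr13:23747203-23747218, + strand): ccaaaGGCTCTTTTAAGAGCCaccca
Hist1h3a (chr13:23761890-23761905, - strand): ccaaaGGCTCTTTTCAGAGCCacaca
Hist1h3g (chr13:23535889-23535904, + strand): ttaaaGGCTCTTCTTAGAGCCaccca
Hist1h4d (chr13:23581950-23581965, + strand): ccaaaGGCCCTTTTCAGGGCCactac
Hist1h4j (chr13:21735437-21735452, + strand): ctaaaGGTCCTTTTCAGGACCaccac
H2afx (chr9:44335240-44335255, + strand): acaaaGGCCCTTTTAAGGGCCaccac

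The stem GGCTCT was shared by all stem-loops found in H1 (4 genes), H2A (11), H2B (10) and H3 (9) genes. The H4 genes differed from these, with the stem GGCCCT in 10 genes and GGTCCT in 2, as the sequences of Hist1h4d and Hist1h4j show. The loop TTTC was the commonest, in 35 genes, and Hist1h3g was the 1 gene with the loop TCTT. H2afx, a replacement variant whose phosphorylated protein marks DNA breaks, carries the H4 form of the stem with the loop TTTA. Of the 46 models with a stem-loop, 23 end within 74 bases of it and 23 run on for 108 to 4884 bases. Over all genes of these classes, the median level was 2.32 FPKM in WT against 3.40 FPKM in KD for models ending near the stem-loop, and 4.79 FPKM in WT against 4.80 FPKM in KD for those running on. The 21 replication-dependent rows without a stem-loop in the model had a median of 3.002 FPKM in WT against 2.36 FPKM in KD. These medians of levels fall on different genes in the 2 groups and include rows at 0. The median log2 ratio of the genes that reached 1 FPKM was 0.30 for models ending near the stem-loop (13 genes), 0.00 for those running on (17 genes) and 0.08 for those without a match (15 genes), so that in the last class it differed in direction from the medians of levels. The absence of a match says only that the letters are not in that transcript model. The deposited table gives 29 of the 67 loci the length of the coding sequence with its stop codon, and 22 of the 46 stem-loops lie outside the listed locus of their gene.

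The replication-dependent genes covered a range from 0 to nearly 1000 FPKM, and their sums in the 2 groups were close. Of the 67 rows, 7 were listed at 0 in both groups, 15 were above 0 in at least 1 group but under 1 FPKM in both, and 45 reached 1 FPKM in at least 1 group and were above 0 in both. Summed over all 67 rows the level was 1891 FPKM in WT against 1933 FPKM in KD, a ratio of 1.02. In KD 31 of the 45 genes had the higher value and 14 the lower, beside 5878 higher and 5670 lower over all genes so filtered. The median log2 ratio was 0.07, beside 0.00 over all genes. A pair of genes made up 67.5% of the summed level for WT and 66.4% for KD. They were Hist1h4d, an H4 gene, and Hist1h2ak, an H2A gene. The other 65 rows summed to 614 FPKM in WT against 649 FPKM in KD, a ratio of 1.06. The plot of the replication-dependent genes by type shows these 2 genes apart from the rest.

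**Figure D1:**
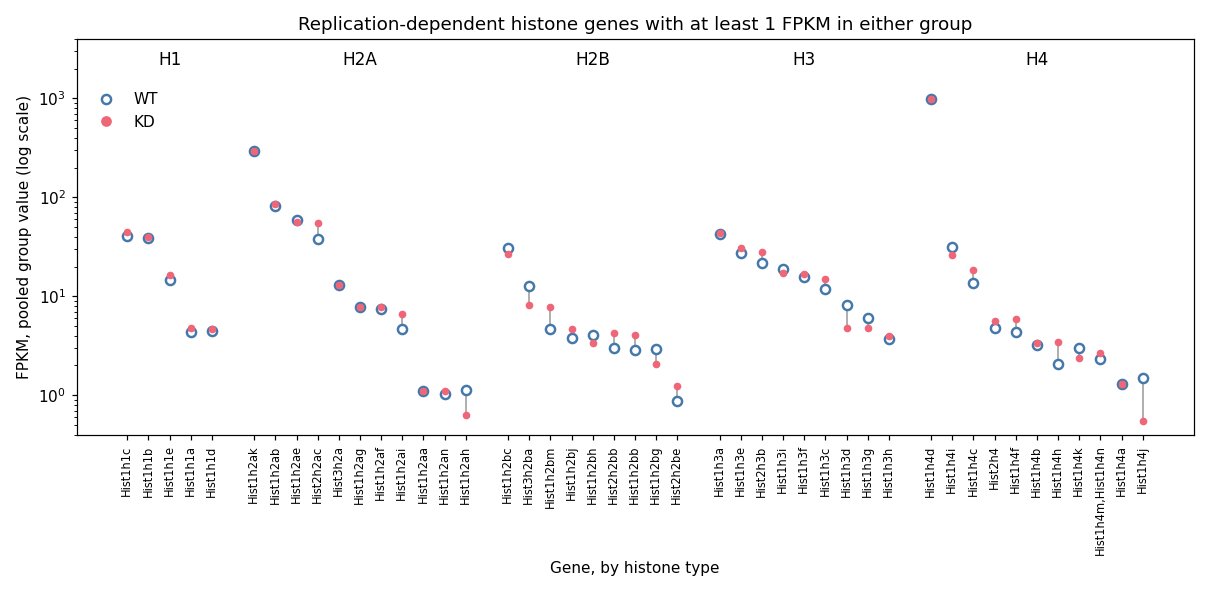
Pooled group values of the 45 replication-dependent histone genes with at least 1 FPKM in either group, by histone type, on a log axis. Open circles are WT, filled circles KD, and lines join the 2 values of a gene. Hist1h4d and Hist1h2ak lie above all others, and wide gaps between the 2 values are found among low genes.

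Linker histone H1 genes of the cluster were close in the 2 groups. Hist1h1c had 41.0 FPKM in WT against 45.02 FPKM in KD, Hist1h1b 38.7 and 39.9 FPKM, and Hist1h1e 14.5 and 16.5 FPKM. All 5 H1 genes that reached 1 FPKM were slightly higher in KD, beside 50.9% of all genes, by log2 ratios from 0.05 to 0.18, and the summed H1 level went from 103 to 111 FPKM. Hist1h1e shares its locus in the table with Hist1h2be, so that its value is less certain. The sixth gene, the testis-specific Hist1h1t, was listed at 0 in both groups.

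H2A was dominated by Hist1h2ak, at 298 FPKM in WT against 296 FPKM in KD. Hist1h2ab followed with 82.1 and 85.6 FPKM and Hist1h2ae with 59.7 and 56.8 FPKM. The log2 ratios of these 3 highest H2A genes ran from -0.07 to 0.06. Summed H2A was 515 FPKM in WT against 532 FPKM in KD, and without Hist1h2ak 217 and 236 FPKM. Hist1h2ah, near the floor of 1 FPKM, had 1.13 FPKM in WT against 0.633 FPKM in KD.

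H2B genes were low as a group, and their summed level was close in WT and KD while single genes differed in both directions. The highest were Hist1h2bc (30.8 FPKM in WT, 26.8 FPKM in KD), Hist3h2ba (12.8 and 8.18 FPKM) and Hist1h2bm (4.65 and 7.86 FPKM). Their sum was 67.8 FPKM in WT against 65.6 FPKM in KD, a ratio of 0.967, although the median log2 ratio of the 9 genes that reached 1 FPKM was 0.30. The sum and the median thus differ in sign, since Hist1h2bc and Hist3h2ba, the genes with the highest level, were lower in KD. Of the 9 genes, 1, Hist1h2bc, lay within 0.25 of equality on the log2 scale, beside 5 of 11 H4 genes and 69.0% of all genes. Among all genes with a mean under 10 FPKM, where the 9 lie except Hist1h2bc and Hist3h2ba, the share was 54.5%. The log2 ratios of the H4 genes covered the wider range, from -1.43 to 0.71, against -0.64 to 0.76 for H2B.

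H3 genes of the cluster encode the forms H3.1 and H3.2. Hist1h3a had 42.7 FPKM in WT against 43.9 FPKM in KD, Hist1h3e 27.4 and 30.5 FPKM, and Hist2h3b 21.6 and 28.3 FPKM. The sum was 157 FPKM in WT against 166 FPKM in KD, with a median log2 ratio of 0.08 over 9 genes. Hist1h3d went against the sum, with 8.13 FPKM in WT against 4.80 FPKM in KD.

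H4 was carried by 1 gene. Hist1h4d, on chromosome 13 from 23581602 to 23581913 (mm10), had 980 FPKM in WT against 988 FPKM in KD, which is 93.5% and 93.4% of the summed H4 level. The next genes were Hist1h4i, with 31.3 FPKM in WT against 26.2 FPKM in KD, and Hist1h4c, with 13.6 and 18.5 FPKM. Hist1h4d ranked at place 183 of all 23284 rows by the mean of the group values, while the other 10 H4 genes that reached 1 FPKM had a median of 3.13 FPKM in WT. The H4 locus of Hist1h4d in the table is 312 bases, the coding sequence with its stop codon, and the same length is given for Hist1h4c and Hist1h4f. Of the windows of 50 bases within this locus, 42.2% occur in another histone gene. Why this gene has this value was not tested.

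A difference of at least 1.5-fold between the groups was found for 7 of the 55 histone genes that reached 1 FPKM (12.7%), beside 7.72% of the 11548 genes so filtered. By direction, 3 were higher in KD (4.62% of all genes) and 4 lower (3.10%). Of these 7, 6 were replication-dependent. Higher in KD were Hist1h2bm, with a log2 ratio of 0.76, and Hist1h4h, with 2.09 FPKM in WT against 3.41 FPKM in KD (0.71). Lower in KD were Hist1h4j, with 1.48 and 0.550 FPKM (-1.43), Hist1h2ah (-0.83), Hist1h3d (-0.76) and Hist3h2ba (-0.64). The mean of the 2 values was at most 10.5 FPKM for all 6. Among all genes with a mean under 10 FPKM, 13.4% were at least 1.5-fold apart, against 1.81% of those at 10 FPKM or more. Under 10 FPKM the share of histone genes was 5 of 27 (18.5%). Of the histone genes under 10 FPKM whose locus was also shorter than 1000 bases, 5 of 24 were that far apart (20.8%), beside 11 of 24 other genes of such level and length (45.8%), which together makes 16 of 48 (33.3%). At 10 FPKM or more, 1 of 14 short histone loci (7.14%) and 8 of 44 other short loci (18.2%) were. At 2-fold, 1 histone gene was left, Hist1h4j, beside 2.41% of all genes. Hist1h4j and Hist1h2ah were under 1 FPKM in KD, and with a pseudocount of 1 the log2 ratios of Hist1h2ah and Hist1h4h were -0.38 and 0.51, short of 1.5-fold.

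**Figure D2:**
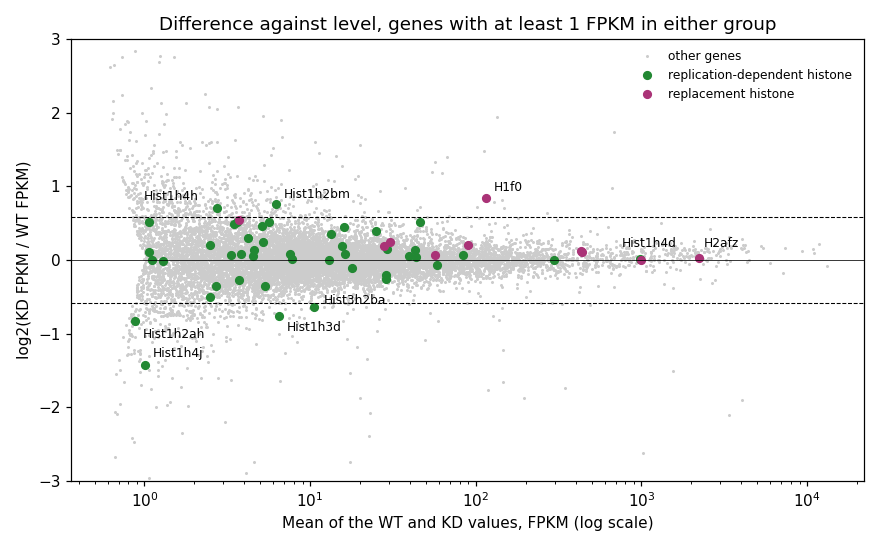
The log2 ratio of KD over WT against the mean of the 2 group values (log axis) for genes with at least 1 FPKM in either group, with other genes in grey, replication-dependent histone genes in green and replacement genes in purple. Dashed lines mark 1.5-fold, 11 other genes lie beyond the axis limits of 3, and H1f0 is the histone gene past 1.5-fold that stands at a high level.

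Summed as these libraries captured them, the replacement variants had more FPKM than the cluster genes. H2afz alone gave 51.1% of the replacement sum in WT and 49.8% in KD. For H1 the cluster genes made up 54.6% of the summed level in WT and 42.2% in KD. Of the replacement variants, 1 was past 1.5-fold: H1f0 was 1.79-fold higher in KD, while the other 9 that reached 1 FPKM were within 1.5-fold. Of all genes, 7.72% were past 1.5-fold, and 4.62% were so and higher in KD. The 12 replacement rows summed to 4314 FPKM in WT against 4510 FPKM in KD. Of the 10 that reached 1 FPKM, 9 were higher in KD, beside 50.9% of all genes, and the median log2 ratio was 0.15. Of the 10, 8 lay within 0.25 of equality on the log2 scale (80.0%), beside 69.0% of all genes. Among all genes with a mean of at least 10 FPKM, where all of the 10 but H1fx lie, the share was 83.9%. The plot of the replacement variants gives the 10 genes in order of level.

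**Figure D3:**
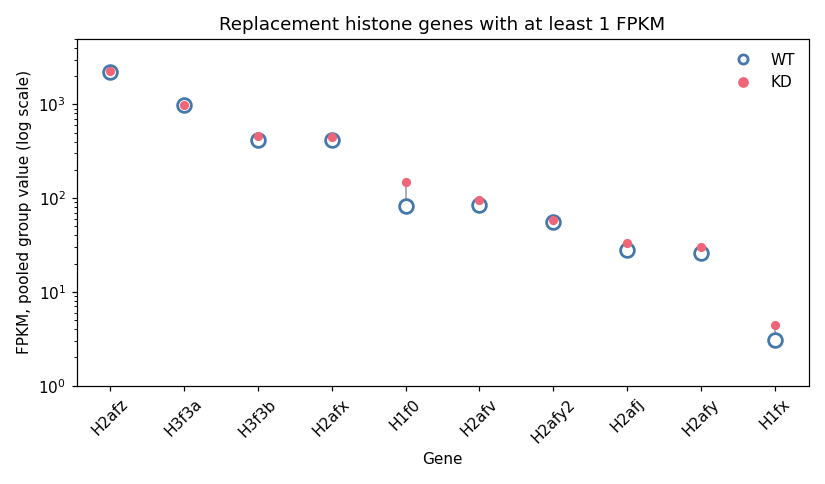
Pooled group values of the 10 replacement histone genes with at least 1 FPKM, ordered by mean, on a log axis, with WT as open and KD as filled circles. The circles overlap for the 4 most abundant genes and stand apart for H1f0, at 82.6 FPKM in WT against 147 FPKM in KD.

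H1f0 encodes the linker histone H1.0, which is known to build up in cells that leave the cycle and differentiate. It lies on chromosome 15 from 79028212 to 79030500 and had 82.6 FPKM in WT against 147 FPKM in KD, a log2 ratio of 0.84. A ratio this high or higher was found for 2.28% of all genes that reached 1 FPKM, and for 9 of 2001 genes with a mean of at least 50 FPKM (0.450%). None of the 50-base windows of its transcript occurs in another histone gene. With pseudocounts of 1 and 0.1, or less the median of all genes, its log2 ratio stayed between 0.83 and 0.84. The summed epicardial markers were also higher in KD, as given above, and their part in the H1f0 value was not tested. In these pooled bulk values, more cells with H1f0 and more H1f0 RNA in each cell cannot be told apart. The other replacement linker histone, H1fx, had 3.04 FPKM in WT against 4.42 FPKM in KD, a log2 ratio of 0.54. Of the summed H1 level, replacement genes made up 45.4% in WT and 57.8% in KD, with H1f0 alone at 43.8% and 56.1%.

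The H2A variants were led by H2afz, which encodes H2A.Z, a variant found at promoters. It had 2206 FPKM in WT against 2247 FPKM in KD, the highest value of any histone gene. Its close relative H2afv had 83.7 and 96.6 FPKM, and H2afx 414 and 448 FPKM. The macroH2A genes, whose products carry a large extra domain and are linked to silent chromatin, had 26.3 FPKM in WT against 30.0 FPKM in KD (H2afy), and 55.4 and 58.2 FPKM (H2afy2, whose locus in the table is shared with another row). H2afj had 28.0 FPKM in WT against 33.1 FPKM in KD. All 6 H2A variants that reached 1 FPKM were higher in KD, beside 50.9% of all genes, with log2 ratios from 0.03 to 0.24. Of the 6, 0 were past 1.5-fold, beside 1.81% of all genes with a mean of 10 FPKM or more, where all 6 lie. H2afy3 had 0.214 FPKM in WT and was listed at 0 in KD, and H2afb1 was listed at 0 in both groups.

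H3.3, the H3 variant laid down at active genes, comes from 2 genes that were both abundant and close between the groups. H3f3a had 993 FPKM in WT against 990 FPKM in KD, and H3f3b 422 and 455 FPKM. Together they gave most of the summed H3 level, of which the cluster genes made up 10.005% in WT and 10.3% in KD. For H2A the replacement share was 84.5% in WT and 84.5% in KD. These shares describe RNA as these libraries captured it. Cenpa, the centromeric H3 variant, which the naming rule leaves out, had 219 FPKM in WT against 234 FPKM in KD. The oocyte gene H1foo had 0.0514 FPKM in WT and was listed at 0 in KD, and the testis genes H1fnt and Hils1 were listed at 0 in both groups.

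By cluster, the Hist2 genes that reached 1 FPKM stood to one side. This grouping was looked at after the values had been seen. Hist2 lies on chromosome 3 from 96219916 to 96270192, and all 5 of its genes that reached 1 FPKM had the higher value in KD, beside 50.9% of all genes. Their median log2 ratio was 0.51. Hist2h2ac had 38.2 FPKM in WT against 54.6 FPKM in KD, Hist2h2bb 3.002 and 4.28 FPKM, Hist2h4 4.79 and 5.66 FPKM, and Hist2h2be 0.878 and 1.25 FPKM. With Hist2h3b, given above, 0 of the 5 reached 1.5-fold, beside 7.72% of all genes. Under 1 FPKM, Hist2h2ab (0.264 FPKM in WT, 0 in KD) and Hist2h3c2 (0.393 and 0.108 FPKM) were lower in KD. Hist2h3c1 (0.0977 and 0.163 FPKM) was higher. Of the windows within the locus, counted as for Hist1h4d, 94.2% for Hist2h3b and 53.4% for Hist2h2ac occur in another histone gene, which limits both values. The share was 5.46% for Hist2h4 and 0% for Hist2h2bb and Hist2h2be. The 10 Hist2 rows summed to 69.2 FPKM in WT against 94.4 FPKM in KD, a ratio of 1.36, against 1795 and 1817 FPKM for the 53 Hist1 rows. The median log2 ratio of the 38 Hist1 genes that reached 1 FPKM was 0.05. Other genes within 500 kb of Hist2 had a median log2 ratio of 0.03 (30 genes). The Hist3 cluster, on chromosome 11, held Hist3h2a at 12.9 FPKM in both groups and Hist3h2ba, lower in KD as given above, and Hist4h4, on chromosome 6, had 0.634 FPKM in WT against 0.321 FPKM in KD.

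Many H2A and H2B genes stand head to head and share 1 stretch of promoter. Among the 68 histone genes matched to RefSeq promoters (GRCm38.p6, 250 bases before to 50 bases after the start), 9 divergent pairs started within 500 bases of each other, all of them an H2A with an H2B gene, 164 to 281 bases apart. The H2A gene had the higher WT value in 8 of the 9 pairs and the higher KD value in 6. Hist1h2bc and Hist2h2be had no matched promoter, so the 9 pairs leave them out. The locus of Hist1h2bc starts at 23684199 on chromosome 13, beside the start of Hist1h2ac at 23683959. There the H2B gene was higher, with 30.8 FPKM in WT and 26.8 FPKM in KD against 0.749 and 0.909 FPKM for Hist1h2ac. Hist2h2be, at 0.878 and 1.25 FPKM, lies beside Hist2h2ac, which was higher. Hist1h2ap and Hist1h2br were tied at 0 in KD, and Hist1h2ah had 0.633 FPKM in KD against 0.650 FPKM for Hist1h2bk. The gap was widest for Hist1h2ak, whose partner Hist1h2bn, 164 bases away, had 0.102 FPKM in WT against 0.853 FPKM in KD. Both values of Hist1h2bn are under 1 FPKM. Of the 50-base windows within the locus, 86.4% for Hist1h2bn and 52.3% for Hist1h2ak occur in another histone gene, which limits both values. Hist1h2ae, at 59.7 and 56.8 FPKM, faced Hist1h2bg, at 2.91 and 2.06 FPKM. The pair of Hist1h2ag (7.77 and 7.86 FPKM) and Hist1h2bj (3.80 and 4.67 FPKM) was closer in level. In the other pairs at least 1 gene was under 1 FPKM in both groups, and the plot of the pairs shows all 9.

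**Figure D4:**
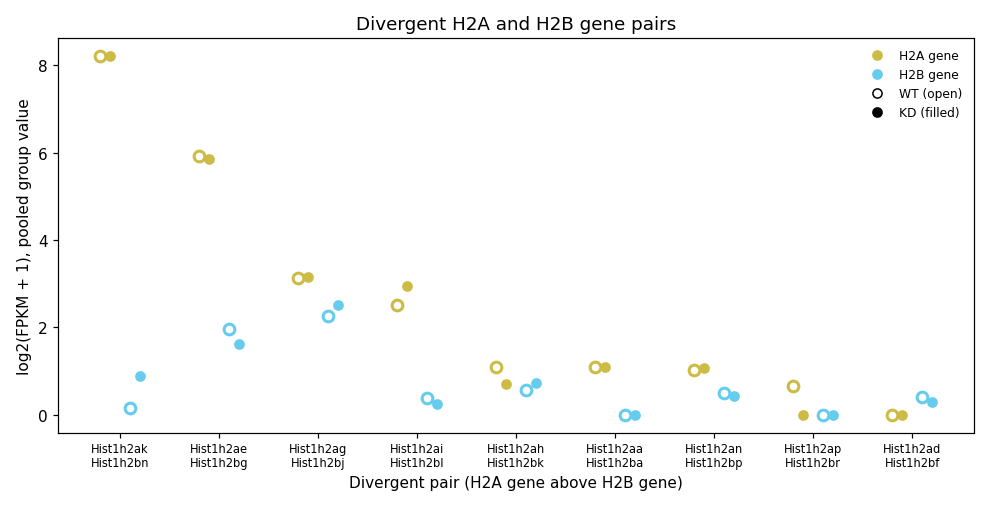
Pooled values, as log2(FPKM + 1), of the H2A gene (yellow) and H2B gene (blue) of 9 divergent pairs, with WT as open and KD as filled circles. The H2A gene lies above its partner in 8 pairs in WT, most clearly for Hist1h2ak, and WT and KD circles of a gene lie closer to each other than the 2 genes of the leading pairs.

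The promoters of Hist1h4d and Hist1h2ak, the most abundant replication-dependent genes, and of H1f0, the abundant gene with the largest difference, are given here for comparison. Capitals mark the 4 motifs that were searched on both strands, which may overlap. The first was the TATA box in the form TATAAA, and the second the CCAAT box. A further motif was the H1 box, AAACACA, known from linker histone promoters. The last was ATTTGCAT, the octamer known from H2B promoters. The window of Hist1h2ak includes the start of Hist1h2bn on the other strand.
Hist1h4d (chr13:23581318-23581617, + strand): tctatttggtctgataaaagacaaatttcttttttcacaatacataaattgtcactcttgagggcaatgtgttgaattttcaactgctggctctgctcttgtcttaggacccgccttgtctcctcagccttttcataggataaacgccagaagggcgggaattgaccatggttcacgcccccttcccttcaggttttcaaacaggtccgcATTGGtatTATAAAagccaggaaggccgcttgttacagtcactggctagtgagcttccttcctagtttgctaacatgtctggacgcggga
Hist1h2ak (chr13:21753863-21754162, - strand): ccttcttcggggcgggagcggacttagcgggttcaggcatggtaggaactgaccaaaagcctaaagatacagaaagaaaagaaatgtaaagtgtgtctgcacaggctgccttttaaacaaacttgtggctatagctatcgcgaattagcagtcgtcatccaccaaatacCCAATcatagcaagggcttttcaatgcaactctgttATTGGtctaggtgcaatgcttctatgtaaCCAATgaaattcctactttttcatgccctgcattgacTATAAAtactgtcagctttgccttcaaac
H1f0 (chr15:79027962-79028261, + strand): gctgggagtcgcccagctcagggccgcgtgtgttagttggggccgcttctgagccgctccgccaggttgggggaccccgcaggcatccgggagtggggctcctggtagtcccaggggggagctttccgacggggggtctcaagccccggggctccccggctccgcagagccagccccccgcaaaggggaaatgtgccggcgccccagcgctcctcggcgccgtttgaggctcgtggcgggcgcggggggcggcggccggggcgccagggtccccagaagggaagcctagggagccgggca

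TATAAA was in 34 of 58 replication-dependent promoters (58.6%), in 1 of 10 replacement promoters and in 14.2% of 27025 promoters of all genes with this length. CCAAT was in all 6 H1, 16 H2A, 15 H2B and 10 H3 promoters of the clusters but in 3 of 11 H4 promoters, beside 37.9% of all promoters. AAACACA was in 5 of 6 cluster H1 promoters, beside 7.14% of all. ATTTGCAT was in 6 of 15 H2B and 7 of 16 H2A promoters, beside 1.75% of all, and the windows of divergent pairs overlap, so these are not separate counts. The window of H1f0 held 0 of the 4 motifs, which says only that these letters are not in it. A match is a description of the sequence and no evidence of binding.

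Genes that act on histone mRNAs, on the transcription of histone genes or on histone proteins were all within 1.5-fold between the groups where they reached 1 FPKM. The processing list also holds factors of histone gene transcription, such as Hinfp and Pou2f1. Of its 23 genes, 22 reached 1 FPKM and 0 were 1.5-fold apart, with log2 ratios from -0.23 to 0.30, the highest being that of Pou2f1. Slbp, which binds the stem-loop, had 87.6 FPKM in WT against 89.5 FPKM in KD. Npat and Casp8ap2, organisers of the nuclear body at the histone clusters, had 5.93 and 5.45 FPKM, and 7.63 and 6.49 FPKM. Lsm10 and Lsm11, subunits of the U7 particle that guides 3′ end cutting, had 55.8 and 55.0 FPKM, and 1.97 and 1.77 FPKM. Of 29 chaperone genes, 27 were listed and reached 1 FPKM, and 0 were 1.5-fold apart (-0.28 to 0.26). Of 20 S phase genes, 0 were 1.5-fold apart (-0.26 to 0.35). By direction, 16 of the 22 processing, 18 of the 27 chaperone and 15 of the 20 S phase genes were lower in KD, beside 5670 of 11548 genes. The share of all genes past 1.5-fold was 7.72%, as given above, and 1.81% at a mean of 10 FPKM or more, where most genes of these lists lie. The median log2 ratio was -0.08 for processing, -0.04 for chaperone and -0.06 for S phase genes, beside 0.07 for the replication-dependent histone genes. Mcm2 stands in both of the latter lists. The plot by gene group sets these lists beside the histone types, whose difference in spread was not tested.

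**Figure D5:**
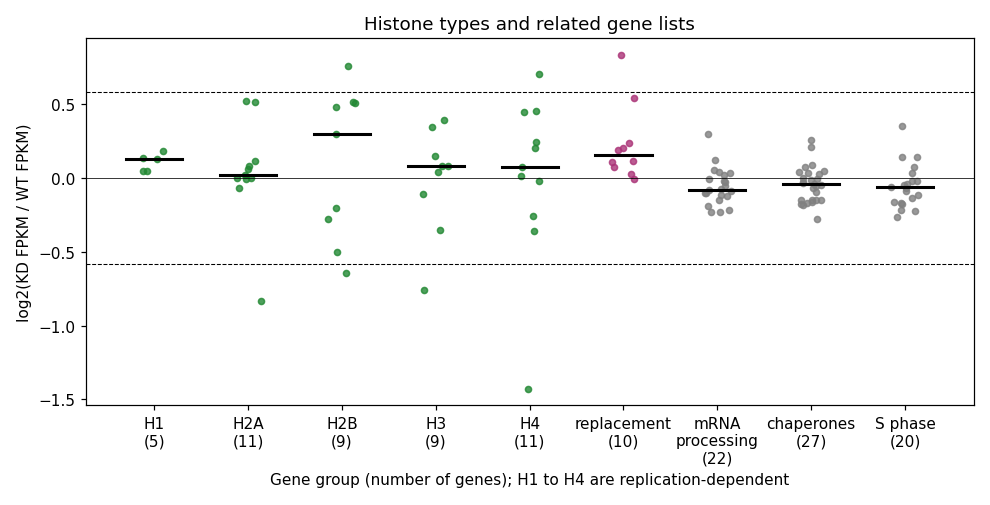
The log2 ratio of KD over WT for each gene with at least 1 FPKM in either group, by histone type and by list, with black bars at the medians and dashed lines at 1.5-fold. The processing, chaperone and S phase genes all lie between the dashed lines, and H4 covers the widest range of the replication-dependent types.

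Near-identical copies limit the values of single cluster genes. Windows of 50 bases were counted within the listed locus, since the GENCODE model can run past it, and 64 of the 67 replication-dependent rows had such windows. Over these a median of 51.4% of the windows occur in another histone gene, and for 34 rows it was over 50%. The median was 67.1% for H3 genes, 56.0% for H2A genes and 2.78% for H1 genes of the clusters. Of the genes at least 1.5-fold apart, the share was 95.6% for Hist1h2ah, 81.8% for Hist1h3d, 67.7% for Hist1h4j, 45.8% for Hist1h4h, 44.9% for Hist1h2bm and 22.2% for Hist3h2ba. For Hist1h2ak, the highest H2A gene of the clusters, it was 52.3%. Several rows of the table name a pair of copies, and Hist1h2ap was listed at 0.567 FPKM in WT and 0 in KD while the row that joins it to Hist1h2ao had 0.000160 FPKM in WT against 0.385 FPKM in KD. The read length is not given in the sources used here, so 50 bases is a choice made for this count. Without the genes over 50%, the median log2 ratio of the replication-dependent genes was 0.08 over 21 genes.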

How the data were processed

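Ventricles of E9.5 chimeric embryos, 3 WT and 3 KD, were sequenced single-end after Smart-Seq2 (10 ng of total RNA, 12 and 9 PCR cycles). Groups were taken from the sample titles. The submitters' processing notes name TopHat, Bowtie2, Cuffdiff and mm10, with no versions, and the annotation is not given in the sources used here. The authors deposited a Cuffdiff table with FPKM values pooled over the embryos of each group. Its columns of fold changes, test scores, p-values and q-values are the authors' own comparison and were not used. There were 0 unused columns of single samples.

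From the deposited FPKM values the log2 ratio of KD over WT was computed without a pseudocount for genes with at least 1 FPKM in either group and above 0 in both. A difference was counted from 1.5-fold. No replicate test was possible. Start positions are those of the table with 1 added, which matched the GENCODE M21 start in 24 of 79 rows, against 0 as given; 75 of 79 loci overlapped the GENCODE gene. Promoters are RefSeq's (GRCm38.p6), matched through synonyms for 68 of 79 genes.

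Named are all replacement variants, the 3 highest genes of each replication-dependent type, all genes past 1.5-fold, and Slbp, Npat, Casp8ap2, Lsm10 and Lsm11; the Hist2 and paired genes, Hist1h1t, H2A and H4 genes beside them and copies were added after their values were seen. The members and lists were chosen with earlier results of these data known. The alternatives were other floors, a 2-fold threshold, pseudocounts, scalings and the omission of shared loci or of the highest member. Splits by level and omission of near-identical copies were added after seeing the data. Python 3.11.15, NumPy 2.4.6, pandas 2.3.3 and Matplotlib 3.10.9 were used.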

Additional observations from a re-analysis of the deposited data

How the results depend on the processing

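No paired analysis was possible because only pooled group values were given, and for the same reason fits without each replicate were not run. The count of histone genes at least 1.5-fold apart, 7 as reported, was 1 at 2-fold, 4 with at least 5 FPKM in either group, 15 with no filter other than above 0, and 2 among genes with a mean of at least 10 FPKM (a split added after seeing the data). It was 5 to 7 under the other alternatives. The median log2 ratio of the replication-dependent genes, 0.07, was 0.0760 with at least 1 FPKM in both groups and with no filter, 0.0601 with at least 5 FPKM in either group and without shared loci, 0.0575 with a pseudocount of 1, 0.0648 without near-identical copies counted over the transcript model, and 0.0804 without those counted within the locus (both added after seeing the data). That of the replacement genes, 0.15, was 0.11 with at least 5 FPKM in either group and 0.19 without shared loci. The log2 ratio of the summed replication-dependent level, 0.03, was 0.00121 with both groups scaled to the same FPKM sum and 0.0527 without Hist1h4d. That of the replacement genes, 0.06, was 0.0333 with this scaling and 0.10 without H2afz. The direction of these medians and sums held, and the cause of the differences was not tested. The processing, chaperone and S phase counts were 0 under each alternative run for them. These were 2-fold, at least 1 FPKM in both groups, less the median of all genes, and a pseudocount of 1. Since depth is unknown, no counting error could be given for genes near 1 FPKM.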
